A study of Mus musculus with 4 samples.

Results

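The proliferins are secreted hormones of the prolactin family, encoded in the mouse by several near-identical genes named Prl2c. Those genes were followed here in newborn keratinocytes with and without a deficiency of Ovol2, which encodes a transcription factor that keeps cells epithelial. Members were chosen by their level: the Prl2c symbols whose mean over the 4 libraries was at least 1 FPKM, a read number scaled to transcript length and to library size. Of 5 Prl2c symbols among 23970 in the expression table, 3 met that rule, namely Prl2c2, Prl2c3 and Prl2c5. The lowest mean inside the threshold was 127.6 FPKM (Prl2c2). Outside it were Prl2c4, with a mean of 3.79e-05 FPKM, and Prl2c1, listed at 0 in every library. The overall level therefore chose the members and is given as a description, while the difference between genotypes was not part of the rule. The members were nevertheless chosen with earlier results of these data known. Prl2c2 and Prl2c3 were listed at first, and Prl2c5, which meets the rule, was added. Mean FPKM of Prl2c2 and Prl2c3 was 1.83 and 2.16 times as high in Ovol2-deficient cells as in controls, and both passed the test on FPKM. That of Prl2c5 was 1.50 times as high and did not pass. In the authors' deposited comparison, made from counts, Prl2c2 and Prl2c5 were called higher. Prl2c3 had a mean normalized count of only 3.01 there, a log2 fold change of 0.02 and no adjusted p.

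Proliferins are best known from the placenta, where trophoblast giant cells secrete them and they promote the migration of endothelial cells and the growth of vessels. They were first found as transcripts induced by growth factors in mouse 3T3 fibroblasts. On target cells they bind the receptor for insulin-like growth factor 2 and mannose 6-phosphate, encoded by Igf2r. Their promoters are a classical subject of work on AP-1 factors and the glucocorticoid receptor, and GATA factors act on them in trophoblast.

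Keratinocytes of newborn mice were grown at passage 0 in low-calcium medium on J2-3T3 cells, a mouse fibroblast line made unable to divide, and no further treatment was given. According to the labels the feeder cells were taken off completely and cells were collected before confluence. Of the 4 libraries, 2 came from controls and 2 from Ovol2-deficient cells. The allele, the driver of any deletion, the strain and the number of animals in a library are not given in the sources used here, nor whether the replicates came from separate animals, so p-values measure only the spread between these libraries. Ovol2 itself stood at 2.68 and 2.14 FPKM in the controls against 1.45 and 0.941 in deficient cells, without passing the test (adjusted p = 0.129 in limma), and reads outside the altered part may count toward it. The keratins Krt5 and Krt14 stood between 1773 and 2960 FPKM in all 4 libraries. Depth was not given. Levels in the authors' deposited table that match single reads put it at about 12400000 to 14800000 counted reads a library, if normalized totals were equal.

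The Prl2c copies are so alike that the share of each is uncertain, which bears on every value that follows. In GENCODE M21 (build GRCm38, the same as the files' mm10) they lie on chromosome 13. Prl2c3 (ENSMUSG00000056457.6) runs from 12790816 to 12800079 and Prl2c2 (ENSMUSG00000079092.4) from 12996125 to 13005383, both on the minus strand. Prl2c5 (ENSMUSG00000055360.13) runs from 13182715 to 13191923 on the plus strand. Each main transcript has 5 exons. The coding sequences of Prl2c2 and Prl2c3, both of 675 bases, differed at 3 positions (99.56% identical). That of Prl2c5, 669 bases long, was 96.15% identical to Prl2c2 and 96.0% to Prl2c3, counting a stretch of 6 bases that it lacks. The stretch of 60 coding bases in which the copies differed most, bases 306 to 365 counted from the start codon of Prl2c2, shows how little sets them apart. Capitals mark the 7 positions that are not the same in all 3 copies, of which 1 tells Prl2c2 from Prl2c3. The stretch covers exonic bases within chr13:12997418-12998590 (Prl2c2), chr13:12792125-12793297 (Prl2c3) and chr13:13189466-13190635 (Prl2c5), each of which includes an intron.
Prl2c2: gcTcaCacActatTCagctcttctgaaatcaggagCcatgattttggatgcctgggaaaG
Prl2c3: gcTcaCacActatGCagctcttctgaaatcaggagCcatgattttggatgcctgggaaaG
Prl2c5: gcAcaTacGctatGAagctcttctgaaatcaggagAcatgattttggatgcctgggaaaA

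Likeness over the length of a read was counted from the main transcripts. Of the 793 possible stretches of 50 bases in Prl2c2, 710 (89.5%) also occurred in a transcript of another gene, 635 of them in Prl2c3. For Prl2c3 it was 635 of 808 (78.6%) and for Prl2c5 it was 307 of 795 (38.6%). With stretches of 100 bases the shares were 66.4% for Prl2c2, 62.3% for Prl2c3 and 8.7% for Prl2c5. The sources used here do not give the read length. Outside the Prl2c genes, the pseudogene Gm7040 was the only gene that held any of these stretches. By this count Prl2c5 shares the least with other genes, and because reads may be divided among the copies their sum is given as well.

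Prl2c2, the copy first named proliferin, stood at 94.5 and 86.0 FPKM in the controls against 185.4 and 144.5 in Ovol2-deficient cells. Both deficient values lay above both controls, and the lower of them was 1.53 times the higher control. Group means of 90.3 ± 6.02 and 165.0 ± 28.9 (SD, n = 2 per group) gave a 1.83-fold ratio. On the log2(FPKM + 1) scale the difference was 0.85 with an SE of 0.13, and Prl2c2 rose by limma's test over all 11350 genes (adjusted p = 0.0419). Without Ovol2-deficient library 1 the difference was 0.67 and did not pass (adjusted p = 0.182), nor did it without control 2 (0.79, adjusted p = 0.050041).

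Prl2c3 stood at 81.1 and 95.6 FPKM in the controls against 187.0 and 195.4 in deficient cells. The groups were further apart than for Prl2c2, since the lower deficient value was 1.96 times the higher control. Group means of 88.3 ± 10.3 and 191.2 ± 6.01 (SD, n = 2 per group) gave a 2.16-fold ratio and a log2 difference of 1.11 (SE 0.11). Prl2c3 rose as well (adjusted p = 0.0214 in limma). It did not pass without Ovol2-deficient library 1 (difference 1.14, adjusted p = 0.130) or library 2 (1.08, adjusted p = 0.0558).

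Prl2c5, the copy known as mitogen-regulated protein 4, was the highest of the 3 in both controls, at 109.9 and 159.1 FPKM. In the deficient libraries it stood at 225.1 and 179.2. The groups did not overlap, but the lower deficient value was only 1.13 times the higher control. Group means of 134.5 ± 34.8 and 202.2 ± 32.4 (SD, n = 2 per group) gave a 1.50-fold ratio and a log2 difference of 0.60 (SE 0.19). Prl2c5 did not pass (adjusted p = 0.160 in limma). Without control 2, its higher control, the difference was 0.86 and passed (adjusted p = 0.0351), and without control 1 it was 0.33 (adjusted p = 0.346). It was 0.44 without Ovol2-deficient library 1 (adjusted p = 0.4999).

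**Figure D1:**
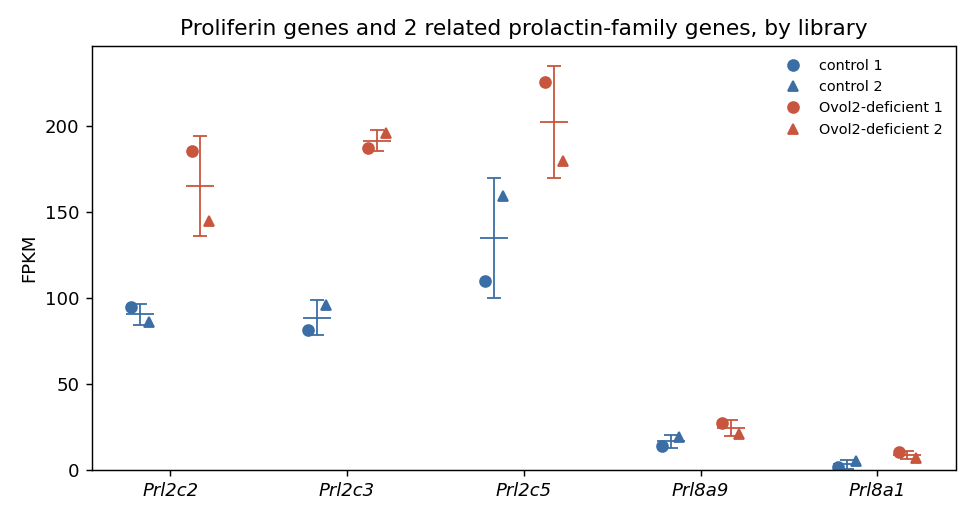
FPKM of the 3 proliferin genes and of Prl8a9 and Prl8a1 in each library (circles, library 1; triangles, library 2), with group means and SD as bars (n = 2 per group). For Prl2c2 the deficient libraries sit at 144.5 and 185.4, above the controls at 86.0 and 94.5.

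Summed over the Prl2c symbols, the level was 285.5 and 340.7 FPKM in the controls against 597.5 and 519.2 in deficient cells. Both deficient sums were at least 1.52 times either control sum. Group means of 313.1 ± 39.1 and 558.4 ± 55.3 (SD, n = 2 per group) gave a 1.78-fold ratio. With the copies entered as a single row, the log2 difference was 0.83 (SE 0.13) and the summed proliferin level rose in limma (adjusted p = 0.0422). It did not pass without control 1 (0.71, adjusted p = 0.0652), Ovol2-deficient library 1 (0.73, adjusted p = 0.183) or library 2 (0.94, adjusted p = 0.0903). As a single gene it would rank 201 and 151 among all symbols in the controls against 84 and 88 in deficient cells. Relative to Krt14, a major keratin of basal keratinocytes, it came to 12.8% and 14.9% in control cells against 26.2% and 29.3% in deficient cells.

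Of the 3 members, 2 were called higher, where limma called 0.837% of all tested genes higher (1.35% in either direction). All 3 had both deficient values above both controls, as did 24.1% of all tested genes, while 24.0% had both below, so that 48.1% did not overlap. By the size of the log2 difference, Prl2c3 ranked 86, Prl2c2 137 and Prl2c5 328 from the top of the 11350 genes. Whether the copies changed by different amounts was not tested. The share of Prl2c3 in the sum was 28.4% and 28.1% in the controls against 31.3% and 37.6% in deficient cells. Prl2c5 held 38.5% and 46.7% in the controls against 37.7% and 34.5% in deficient cells, so its share was higher in both controls. The shares of Prl2c2, from 25.2% to 33.1%, overlapped between the groups. The ratio of Prl2c2 to Prl2c3 was 1.17 and 0.8995 in the controls against 0.992 and 0.7395 in the deficient libraries, a spread within each group as wide as that between them.

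**Figure D2:**
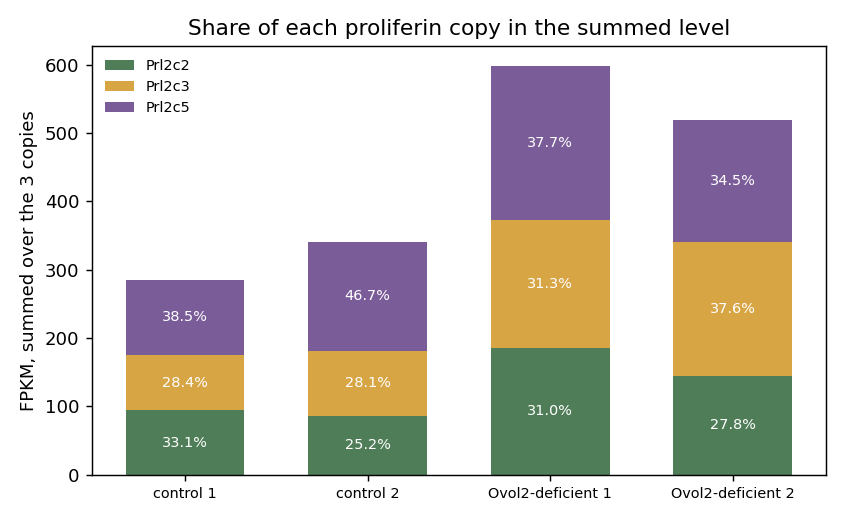
FPKM of the 3 copies stacked for each library, with each copy's share of the sum printed in percent. The deficient libraries stand at 597.5 and 519.2 in all, above the controls at 285.5 and 340.7, and the share of Prl2c3 runs from 28.1% to 37.6%.

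The authors' deposited comparison, made from mean normalized counts, gave another picture for Prl2c3. In the authors' deposited table, Prl2c2 had a mean normalized count of 1093 and a log2 fold change of 0.74 (SE 0.13, adjusted p = 8.38e-06). Prl2c5 had a mean normalized count of 1654 in the authors' deposited table and a log2 fold change of 0.46 (SE 0.15, adjusted p = 0.0437). It was therefore called higher there, as were 2.33% of the 11582 genes with an adjusted p in the authors' deposited table (4.43% in either direction). Prl2c3, however, had a mean normalized count of 3.01 in the authors' deposited table, with a log2 fold change of 0.02 and no adjusted p. Prl2c4 and Prl2c1 stood at 0 in the authors' deposited table.

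To set the tables side by side, the authors' mean normalized count was divided by the mean FPKM and by the length in kilobases of the gene's longest GENCODE transcript. The median over 10849 genes was 12.9, with an interquartile range of 10.02 to 15.4. Prl2c2 (10.2) and Prl2c5 (10.1) were within that range. Prl2c3 stood at 0.0252, which is 0.196% of the median, and 58 of the 10849 genes (0.535%) were as low or lower. In RefSeq (GRCm38.p6), Prl2c4 is not a gene of its own but an older symbol of Prl2c3, so both tables held 2 symbols for what RefSeq treats as a single locus. Whether that, or the likeness of Prl2c2 and Prl2c3, set the low count was not tested. The rise of Prl2c3 thus rests on FPKM alone, whereas that of Prl2c2 was called in both tables.

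**Figure D3:**
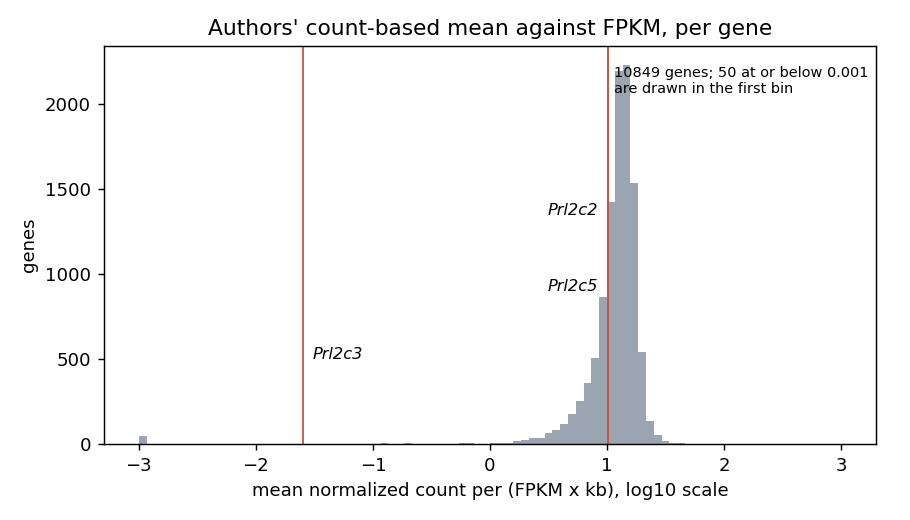
Histogram over 10849 genes of the authors' mean normalized count divided by mean FPKM and by transcript length in kilobases (log10 scale on the horizontal axis, number of genes on the vertical axis). Vertical lines mark Prl2c2 and Prl2c5, at 10.2 and 10.1 on the linear scale near the peak, and Prl2c3 at 0.0252, far to its left.

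Of the Prl2c genes, promoter sequences from RefSeq (GRCm38.p6) were at hand for Prl2c3 and Prl2c5 only, so this pair is shown. The 250 bases before the annotated start are at chr13:12800080-12800329 on the minus strand for Prl2c3 and at chr13:13182466-13182715 on the plus strand for Prl2c5. Capitals mark bases that are substituted or unmatched in the alignment of the pair.
Prl2c3: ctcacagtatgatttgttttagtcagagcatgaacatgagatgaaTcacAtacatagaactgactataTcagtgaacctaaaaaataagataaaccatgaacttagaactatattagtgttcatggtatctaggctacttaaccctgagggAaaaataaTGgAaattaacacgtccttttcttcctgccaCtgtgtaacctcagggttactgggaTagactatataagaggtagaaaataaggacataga
Prl2c5: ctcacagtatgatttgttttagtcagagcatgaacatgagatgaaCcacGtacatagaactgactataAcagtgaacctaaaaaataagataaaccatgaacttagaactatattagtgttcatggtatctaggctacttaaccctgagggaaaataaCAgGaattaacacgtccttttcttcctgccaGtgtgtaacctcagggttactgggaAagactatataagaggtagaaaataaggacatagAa
Over 251 aligned positions 241 were identical (96.0%), with 8 substituted. A TATA-like stretch, TATATAA, began 30 bases before the start in Prl2c3 and 31 before it in Prl2c5, and 3.04% of all 32851 promoter windows held it on either strand. The GATA motif AGATAA began 163 bases before the start in both and was present in 9.99% of windows. The AP-1-like pattern TGANTCA occurred once, in Prl2c3, beginning 209 bases before the start at a place where the copies differ, and 6.75% of windows held it. The stricter TGACTCA, contained in that pattern (4.46% of windows), and AGAACA, the core of glucocorticoid receptor motifs (16.1%), are not in these letters on either strand. A match is a description of the letters only.

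Other genes of the prolactin family were low, with 2 exceptions. Of 23 further genes of the list, which covers the family and growth hormone (Gh), 9 were listed at 0 in all libraries and 12 had a mean under 1 FPKM, the highest of these being Prl7b1 at 0.84. Prl8a9, a placental prolactin-like gene, stood at 13.8 and 19.0 FPKM in the controls against 27.3 and 20.8 in deficient cells. Its groups did not overlap, yet the log2 difference of 0.53 (SE 0.18) did not pass (adjusted p = 0.187 in limma). Prl8a1, of the same subfamily, stood at 1.42 and 5.06 in the controls against 9.99 and 6.78 in deficient cells, a log2 difference of 1.27 (SE 0.39, adjusted p = 0.155 in limma). Without control 2 it was 1.94 and passed (adjusted p = 0.00637), and without control 1 it was 0.61 (adjusted p = 0.140).

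Among the 12 low genes, 4 had both deficient values above both controls and 0 had both below. Among all 6255 genes with a value above 0 and a mean under 1 FPKM, these shares were 22.2% and 10.3%. Prl7b1 was listed at 0.230 and 0 FPKM in the controls against 1.96 and 1.17 in deficient cells. Prl2a1 was listed at 0 and 0.108 against 0.981 and 0.426. Prl8a6 stood at 0.114 and 0.103 against 0.565 and 0.486. These rest on few reads, since the authors' deposited table gave mean normalized counts of 8.67, 3.76 and 4.05 for Prl7b1, Prl2a1 and Prl8a6. The fourth, Prl7c1, was at 0 FPKM in the controls and stood at 0.0777 and 0.168 in deficient cells. Prl6a1, at 0.109 and 0.521 against 0.652 and 0.504, overlapped between the groups. The remaining 7 low genes, Prl, Prl2b1, Prl3d2, Prl4a1, Prl7a1, Prl8a2 and Prl8a8, had a highest value of 0.106 (Prl3d2).

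No gene of the receptor list passed the test. Igf2r, which binds proliferins, stood at 33.8 and 38.1 FPKM in the controls against 31.7 and 32.6 in deficient cells (log2 difference -0.16, SE 0.10, adjusted p = 0.478 in limma). M6pr, the smaller mannose 6-phosphate receptor, ranged from 82.1 to 85.3 over the 4 libraries (log2 difference 0.04, adjusted p = 0.876 in limma). Prlr, the prolactin receptor, was at most 0.363 FPKM everywhere. Of the 3 tested receptor genes, which include the growth hormone receptor Ghr (log2 difference 0.51, adjusted p = 0.104), 0 were called by limma, and their median log2 difference was 0.04 against -0.0014 for all tested genes. Both deficient values lay above both controls for 2 of the 3 and below for 1, against 24.1% and 24.0% of all tested genes. With the replicate number as a block, 1 of the 3 was called higher, where 518 of all tested genes were called in either direction. With no adjustment, 1 of these 3 receptors had a limma p under 0.05. Such values were common among all 11350 tested genes, where a limma p of 0.0404 (Col3a1) ranked 1752 and 0.0698 (Krt5) ranked 2327. The unadjusted counts of the lists that follow are to be read beside those ranks.

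The listed AP-1 and related factors, glucocorticoid receptor and GATA factors showed no call in limma either, with 0 of 11 tested. At an unadjusted p under 0.05 in limma there were 3, and the median log2 difference was 0.16. Fos, an AP-1 subunit induced by growth signals, stood at 40.5 and 15.0 FPKM in the controls against 59.0 and 36.2 in deficient cells. The groups overlapped, with a log2 difference of 0.87 (adjusted p = 0.347 in limma), but without control 1 it was 1.56 and passed (adjusted p = 0.0126). It also passed at 0.87 with the replicate number as a block (adjusted p = 0.0328), the value being higher in the deficient library of each number. Fosl1, another AP-1 subunit, was at 3.14 and 3.86 against 6.75 and 4.74 (0.57, adjusted p = 0.150 in limma). Fosb, at 4.18 and 2.11 against 6.89 and 6.13, had the highest difference of the list and groups that did not overlap (0.90, SE 0.23, adjusted p = 0.106 in limma). Jun, Junb, Jund and Fosl2, also AP-1 subunits, differed by -0.04, 0.16, 0.08 and -0.04, and each changed sign when a library was left out. Nr3c1, the glucocorticoid receptor, was at 19.20 and 19.18 in the controls against 23.2 and 22.4 in deficient cells (0.24, SE 0.09, adjusted p = 0.241 in limma). Gata3 overlapped between the groups (-0.09, adjusted p = 0.787 in limma), and Gata2 was at most 0.669 FPKM. With the block 2 members of the list were called higher, where 518 of all tested genes were called in either direction.

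Of 12 glucocorticoid-responsive genes 1 was called, higher, where limma called 0.837% of all tested genes higher. The median log2 difference was 0.09, and 1 of the 12 had an unadjusted p under 0.05 in limma. The called gene was Lcn2, a secreted lipocalin that many inflammatory signals also induce. Lcn2 stood at 82.4 and 83.3 FPKM in the controls against 123.7 and 149.4 in deficient cells (0.71, SE 0.11, adjusted p = 0.0422 in limma). Fkbp5 and Tsc22d3 overlapped between the groups, with log2 differences of 0.01 and 0.24. Both deficient values lay above both controls for 4 of the 12 (Lcn2, Dusp1, Sgk1 and Per1) and below for 0. Over all tested genes those shares were 24.1% and 24.0%. Dusp1 had the highest difference of the list (0.74) and Mt2 the lowest (-0.29), and neither passed limma (adjusted p = 0.333 and 0.557). Without Ovol2-deficient library 1 or 2, Lcn2 was not called.

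Genes that serum or growth factors induce in 3T3 cells, the setting in which proliferin was found, gave 2 calls among 20 tested. Both were higher, where limma called 0.837% of all tested genes higher. The median was 0.04, and 8 of the 20 had an unadjusted p under 0.05 in limma. Both deficient values lay above both controls for 6 of the 20 and below for 4, against 24.1% and 24.0% of all tested genes. Ccl7, a chemokine for monocytes, stood at 46.1 and 49.3 FPKM in the controls against 92.4 and 89.9 in deficient cells (0.92, SE 0.09, adjusted p = 0.0214 in limma). Ccl2, its neighbour in the genome and in function, stood at 103.6 and 124.4 against 184.0 and 211.6 (0.79, SE 0.12, adjusted p = 0.0419 in limma). Of the 18 that did not pass, 4 were lower in both deficient libraries than in either control. The lowest difference was that of Plau, the urokinase protease, at 51.8 and 47.3 against 23.5 and 33.4 (-0.80, SE 0.16, adjusted p = 0.0608 in limma). Srf, the serum response factor, stood at 24.39 and 26.02 against 17.965 and 18.751 (-0.44, SE 0.09, adjusted p = 0.0707 in limma). Tnc and Ctgf, which encode matrix proteins, differed by -0.49 and -0.38. Lower calls numbered 2 with a minimum of 5 FPKM and 3 with the block, and higher calls 3 in each. Those settings called 267 and 518 of all tested genes in either direction. Also not passing was Ccnd1, a cyclin of the G1 phase, at -0.01 and with a sign that changed when a library was left out. Calls in this list also changed when a library was left out.

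Since proliferin is known from 3T3 fibroblasts, markers of fibroblasts and feeder cells are given beside it. Of 23 tested markers 3 rose (Loxl1, Vim and Pcolce, with adjusted p of 0.0412, 0.0473 and 0.0468 in limma), where 0.837% of all tested genes were called higher, and 20 did not pass. At an unadjusted limma p under 0.05 there were 19. Over all 11350 tested genes, a p of 0.0404 ranked 1752 and 0.0698 ranked 2327. Both deficient values lay above both controls for 22 of the 23, against 24.1% of all tested genes. The median log2 difference was 0.51, with an interquartile range of 0.43 to 0.55. With all 4 libraries, 0 of the 23 exceeded Prl2c2 or Prl2c3 in log2 difference and 2 exceeded Prl2c5. By the ratio of mean FPKM, 0 exceeded Prl2c2 or Prl2c3 and 10 exceeded Prl2c5. The order with respect to Prl2c2 depended on single libraries, since 6 markers exceeded it without Ovol2-deficient library 1, and Twist2 did without control 2 (0.91 against 0.79). For Prl2c5, 20 markers exceeded it without control 1, and 21 did without Ovol2-deficient library 1. For Prl2c3 the number was 0 in each of the 13 alternatives. Summed over the 27 markers in the table, the level was 945 to 1007 FPKM in the controls and 1323 to 1405 in the deficient libraries. None was at 0 in every library, although Fap was listed at 0 in both controls, and Dcn, Lum and Postn stayed near or below 1. Col1a1 stood at 34.5 and 38.7 FPKM against 52.0 and 52.5, and Pdgfra, at 0.874 and 1.06, against 1.43 and 1.83. The number of markers called higher was 12 with the replicate number as a block and 9 with a minimum of 5 FPKM. Those settings called 518 and 267 genes in all, in either direction, against 153 as reported. The number of markers was 1 with median ratio scaling (82 genes in all). It was 0 without a filter (3 in all), with quantile normalization (5) or without a variance trend (6). Calls also changed when a library was left out.

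Per unit of that sum, proliferin stood at 0.284 and 0.361 in the controls against 0.452 and 0.369 in deficient cells. The groups did not overlap, but control 2 and deficient library 2 were nearly level. Relative to Vim, an intermediate filament gene of mesenchymal cells, it was 1.79 and 2.27 in the controls against 2.53 and 2.34 in deficient cells. The part of feeder or other fibroblast RNA in the proliferin difference was not tested, and in bulk RNA more cells of a type and more RNA per cell cannot be told apart. Markers of trophoblast, the best-known source of proliferin, were at or near 0: 7 of 14 were at 0 in all libraries, Hand1 among them, and the highest value of any was 0.717 FPKM (Elf5).

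Markers of the other cell types were given by their sums. The 12 keratinocyte genes summed to 7195 to 7635 FPKM in the controls and 5981 to 6900 in the deficient libraries, and 0 were called in limma (5 at an unadjusted p under 0.05). For 7 of the 12 both deficient libraries were lower than either control and for 0 both were higher, against 24.0% and 24.1% of all tested genes. With the block 2 of the 12 were called lower, where 518 of all tested genes were called in either direction. The 8 melanocyte genes summed to 62.6 to 68.1 and 84.9 to 91.4, and all 6 that were tested had both deficient values above both controls, against 24.1% of all tested genes, without a call (4 at an unadjusted p under 0.05). Immune and endothelial markers were low, with sums of at most 12.6 and 5.23 FPKM, and these sums overlapped between the groups. Single genes did not all overlap, with Pecam1 at 2.37 and 1.89 against 1.50 and 1.60, and Vwf at 0.147 and 0.262 against 0.485 and 0.348.

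**Figure D4:**
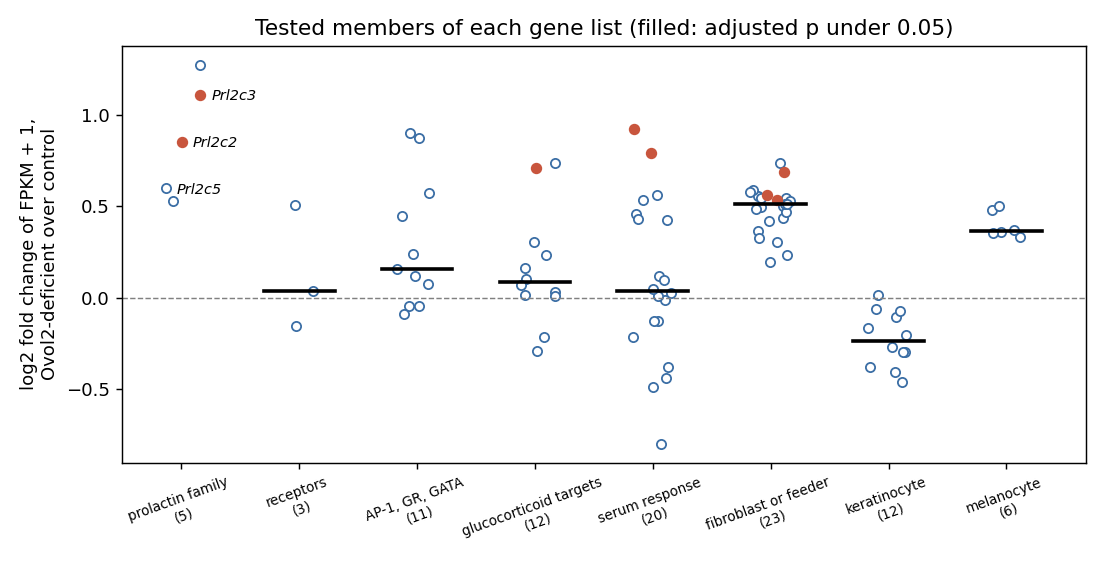
Log2 difference of FPKM + 1, deficient over control, for each tested member of 8 gene lists (number tested under each name). Filled points passed limma at an adjusted p under 0.05, black bars are list medians (none is drawn for the prolactin family, whose members passed a filter on level), and the dashed line is the median of all tested genes; with all 4 libraries, Prl2c2 and Prl2c3 lie above all 23 fibroblast or feeder markers.

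By the pattern over the 4 libraries, measured as the root mean square difference of centred log2(FPKM + 1), the genes most like the summed proliferin level were Csf1, Ptx3, Twist2, Sqrdl and Atoh8. Their distances ran from 0.0537 to 0.0767 among 8758 genes with a mean of at least 5 FPKM. Csf1, the growth factor of macrophages, stood at 15.9 and 19.3 FPKM in the controls against 33.0 and 31.8 in deficient cells. Ptx3, a secreted pentraxin of innate defence, stood at 37.4 and 40.4 against 78.2 and 66.4. Twist2, a mesenchymal transcription factor and itself on the list of fibroblast markers, stood at 6.47 and 8.57 against 13.5 and 12.6. Sqrdl oxidises sulfide in mitochondria, and Atoh8 is a basic helix-loop-helix transcription factor. They were chosen for likeness to the pattern, so their differences are not separate evidence of it.

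**Figure D5:**
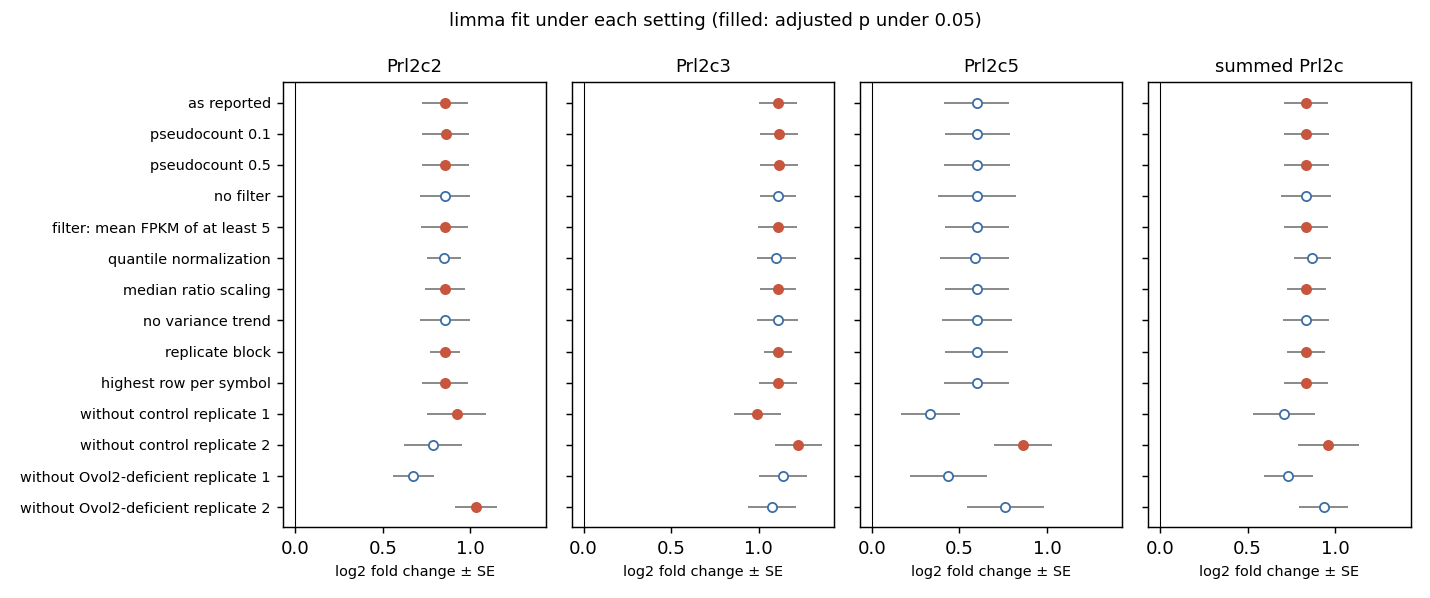
Log2 difference with its SE (horizontal axis) for Prl2c2, Prl2c3, Prl2c5 and the summed level in limma under each setting (vertical axis); filled points have an adjusted p under 0.05. All points lie above 0, from 0.33 (Prl2c5 without control 1) to 1.23 (Prl2c3 without control 2), and which of them passed depended on the setting.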

How the data were processed

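RNA of 4 keratinocyte libraries was extracted with Trizol, amplified as full-length cDNA and tagmented with a Nextera kit, per the labels' protocols. Strand is not stated. TopHat, HTSeq and mm10 are named, with no version or role, per the submitters' processing notes. No source used here gives the annotation. The authors deposited a table of FPKM (24487 rows after 1 repeated header line) and a table of their comparison. Per the file headers the latter holds, for each gene, the mean normalized signal, the log2 fold change and its SE, the score of the test, and raw and adjusted p-values. Its low values fall on steps of single reads, so its mean signal is called a mean normalized count. Deficient columns are named mutant 1 and 2, unlike the labels, so they were assigned to the group and keep the table's numbers.

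Rows with date-like names (27) were left out and rows sharing a symbol summed, which left 23970 symbols. The files held no counts, so the limma branch of the design was used. Genes with a mean of at least 1 FPKM (11350) were tested by limma 3.58.1 (R 4.3.3) after taking log2(FPKM + 1), with genotype as its single term (variance trend, Benjamini-Hochberg adjustment, threshold 0.05), a scale that understates changes of low genes. The fit was checked on data simulated from limma's own variance model. Such data cannot show whether that model holds for these libraries. No pair of libraries shared more than 13 of 11350 values. With 2 libraries per group a permutation test could not reach a small p, and inference relies on limma's variance model. Sequences were aligned with Biopython 1.88. Members, the 11 lists and the alternatives were chosen with earlier results of these data known, and Prl2c5, which meets the rule, was added to the members listed at first. Named genes were the Prl2c symbols, expressed members of the prolactin family, preselected key genes and up to 2 called genes per direction of each list, Ovol2, and the 5 genes most like the summed level. Pcolce and the listed markers Fap, Dcn, Lum, Postn, Elf5, Ghr, Fosb, Plau, Srf, Tnc, Ctgf and Vwf were named after their values were seen. So were Dusp1, Sgk1, Per1 and Mt2 of the glucocorticoid list.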

Additional observations from a re-analysis of the deposited data

How the results depend on the processing

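All 3 members and their sum stayed higher in the deficient libraries under the 13 alternatives. The calls did not stay. Without a filter on low genes the adjusted p was 0.228 for Prl2c2, 0.224 for Prl2c3 and 0.229 for the sum, at unchanged differences of 0.85, 1.11 and 0.83. With quantile normalization the differences were 0.85, 1.10 and 0.87, with adjusted p of 0.0548, 0.0548 and 0.0542. Without a variance trend they were 0.85, 1.11 and 0.83, with adjusted p of 0.0675, 0.0653 and 0.0658. With a library left out, the differences ran from 0.67 to 1.03 (Prl2c2), 0.99 to 1.23 (Prl2c3), 0.33 to 0.86 (Prl2c5) and 0.71 to 0.96 (sum). The count of genes called, 153 as reported, was 3 without a filter, 267 with a minimum of 5 FPKM, 5 with quantile normalization, 82 with median ratio scaling, 6 without a variance trend and 10 to 466 with a library left out. The cause of these changes was not tested.

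The libraries share only a number across the groups. Deviations of the libraries numbered 1 correlated at 0.220 across 11350 genes, which are not independent replicates. With the replicate number as a block, 518 genes were called, and the differences of Prl2c2, Prl2c3, Prl2c5 and the sum were 0.85, 1.11, 0.60 and 0.83 (adjusted p of 0.00609, 0.00148, 0.122 and 0.0155). Among other named genes the block brought Fos (0.87, adjusted p = 0.0328), Col1a1 (0.50, adjusted p = 0.0316) and Twist2 (0.74, adjusted p = 0.0340) past the threshold.

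Signs changed for genes near 0. With a library left out, differences ran from -0.24 to 0.15 for Jun, -0.052 to 0.36 for Junb, -0.034 to 0.19 for Jund, -0.12 to 0.029 for Fosl2, -0.23 to 0.060 for Gata3, -0.092 to 0.12 for Fkbp5, -0.16 to 0.13 for Ccnd1 and -0.35 to 0.014 for Krt14. Quantile normalization gave 0 for Krt5 and 0.067 for Krt14. Of 130 refits of the 10 other called genes that are named, 58 lost the call and 0 changed sign. With a single library in a group, it is assumed to vary like the other group. Depth limits the low prolactin-family genes, which rest on a few reads.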
